A study of Gallus gallus with 6 samples.

Results

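*SMAD2*, a signal carrier of the TGF-β family, and *CHRD*, an extracellular antagonist of its BMP branch, are described here in 6 single small yellow follicles of laying hens. They are 2 of 17992 genes in the deposited table and were picked by gene number, gene18243 for *SMAD2* and gene11327 for *CHRD*. Ligands of the TGF-β family, such as activin, TGF-β and the bone morphogenetic proteins (BMPs), bind receptor kinases on the cell surface, and these phosphorylate SMAD proteins, which then enter the nucleus and regulate transcription. SMAD2 is a carrier for activin and TGF-β. Chordin, the protein of *CHRD*, is secreted and holds BMPs away from their receptors. In the ovary, activins, inhibins and BMPs pass between oocyte, granulosa and theca, and they take part in the growth of granulosa cells and in their response to follicle-stimulating hormone (FSH).

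The follicles came from 3 hens of the Jining Bairi breed, wild type and 30 weeks old, and no treatment is named in the labels. The authors collected every small yellow follicle of each hen. Of these, 2 per hen were sequenced, each as 1 library. By the paper, T1 and T4 are from the same hen, called hen 1 here, T2 and T5 from hen 2, and T3 and T6 from hen 3. The titles of the samples give the higher level of the FSH receptor, *FSHR*, to T1, T2 and T3, whereas the paper's text gives it to T4, T5 and T6. In the RNA-seq table, *FSHR* measured 11.9 (T1), 13.1 (T2) and 13.9 (T3) FPKM (fragments scaled to the length of the transcript and to the size of the library) against 46.4 (T4), 18.9 (T5) and 27.8 (T6). These values go against the titles, although the difference did not pass the test across all genes (mean log2 ratio 1.14, adjusted p = 0.774, limma with Benjamini-Hochberg adjustment), and follicles are named here by number, T1 to T3 being the libraries labelled higher and T4 to T6 the libraries labelled lower. Ratios are taken within a hen, of T4, T5 or T6, called the second follicle, over T1, T2 or T3, the first. A follicle is a mixture of granulosa, theca, vessels and oocyte, so that fewer cells of a type and less RNA per cell cannot be told apart. The libraries held between 12554918 and 13933189 fragments on genes, as read from the steps of the low normalized counts. T4 stood apart: it correlated with the other libraries at a Spearman's rho of 0.866 to 0.932 across genes, which are not independent replicates, against 0.943 to 0.977 for the pairs without it. Results that rest on it are given hen by hen.

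*SMAD2* (chromosome Z, 1515691 to 1557595, plus strand) is listed with a transcript of 3562 bases, and *CHRD* (chromosome 9, 15406846 to 15413486, minus strand) with 3235 bases. These positions are those of the deposited table, and the sources used here name different genome builds. The study also measured *SMAD2* by qRT-PCR. Its primers are shown because they decide which copy of the gene that assay reads, and no qRT-PCR value is given here.
*SMAD2* forward primer: tgagcttgagaaggccatta
*SMAD2* reverse primer: gcgccacagacgacagtaga
Each primer has 20 bases, with 45% G or C in the forward and 60% in the reverse primer. The transcript that the study cites for this pair belongs, in the RefSeq table of assembly GRCg7b, to LOC769000 on chromosome W. The gene with the symbol *SMAD2* lies on chromosome Z in the same table and carries the synonym SMAD2Z. Hens have a Z and a W chromosome. Whether the primers amplify the Z locus, the W locus or both was not tested, and whether fragments were divided between these loci in the deposited values was not tested either.

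*SMAD2* was higher in the T4, T5 or T6 follicle of every hen, 7.32-fold in hen 1, 2.39-fold in hen 2 and 3.95-fold in hen 3. Its level was 96.9 FPKM in T1 against 709 in T4, 70.7 in T2 against 169 in T5, and 75.5 in T3 against 299 in T6. T1, T2 and T3 lay within 1.37-fold of each other, T4, T5 and T6 spread over 4.20-fold, and the ranges did not overlap. Of the 12381 genes that reached 1 FPKM in 3 or more follicles, 5.94% had T4, T5 and T6 all above T1, T2 and T3. The order of the levels was T4, T6, T5, T1, T3, T2. The neighbours T3 and T2 differed by less than the SD of 14.0 FPKM among T1, T2 and T3.

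**Figure D1:**
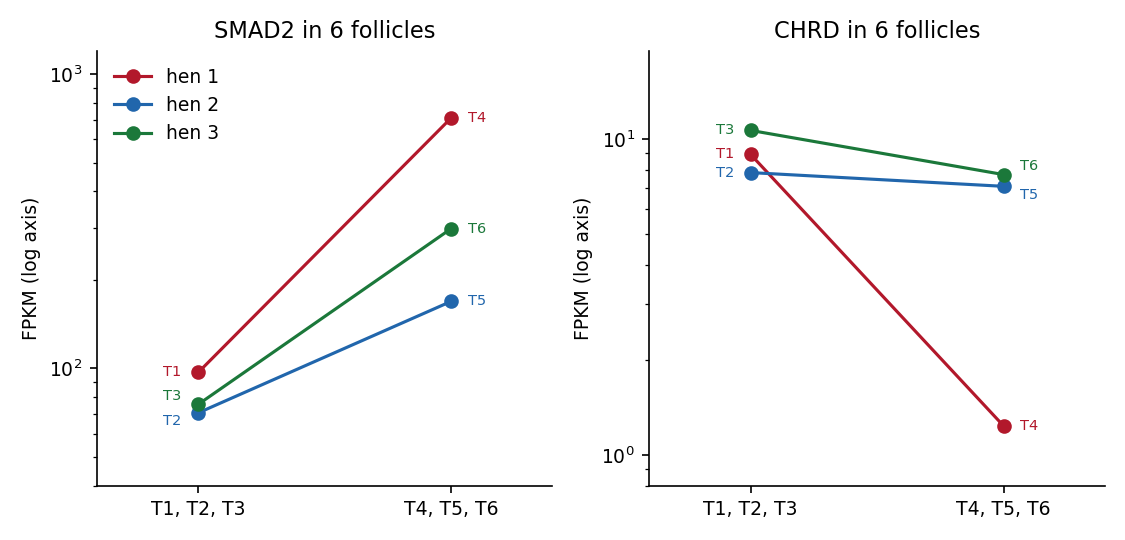
FPKM of *SMAD2* (left) and *CHRD* (right) on log axes, with 1 point per follicle and a line joining the follicles of a hen. *SMAD2* spans 169 to 709 FPKM on the right side of its panel and 70.7 to 96.9 FPKM on the left, while *CHRD* lies between 7.08 and 10.6 FPKM in all follicles but T4, where it is at 1.24 FPKM.

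*SMAD2* was an abundant transcript throughout. It ranked 1286th, 1729th and 1545th of 17992 genes by FPKM in T1, T2 and T3, and 164th, 674th and 444th in T4, T5 and T6. By normalized count, the estimated fragments of a gene divided by a factor per library, it ranked 28th in T4. Its normalized count was 3719 (T1), 2796 (T2) and 2943 (T3) in the first follicles and 27697 (T4), 7261 (T5) and 11685 (T6) in the second. Each follicle gave at least 2850 estimated fragments of *SMAD2*, and the exact 95% Poisson interval in T2, the smallest, ran from 2746 to 2957. These intervals cover counting error only.

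The log2 ratios of *SMAD2*, on log2(FPKM + 0.5), were 2.87, 1.25 and 1.98 in hens 1, 2 and 3. By normalized count they were 2.90, 1.38 and 1.99. The units differed most in hen 2, where 1 FPKM of *SMAD2* stood for 43.0 normalized counts in T5 and for 38.4 to 39.6 in the other follicles. Among all genes with at least 1 FPKM in either follicle, 5.38% were at least 2-fold higher in T4 (hen 1, 12688 genes), 1.46% in T5 (hen 2, 12585 genes) and 2.61% in T6 (hen 3, 12706 genes). *SMAD2* ranked 54th, 122nd and 56th from the top in these comparisons. It was among 34 genes, 0.275% of 12381, with a ratio of at least 2-fold higher in all 3 hens. These ratios set single follicles against each other and carry no test.

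**Figure D2:**
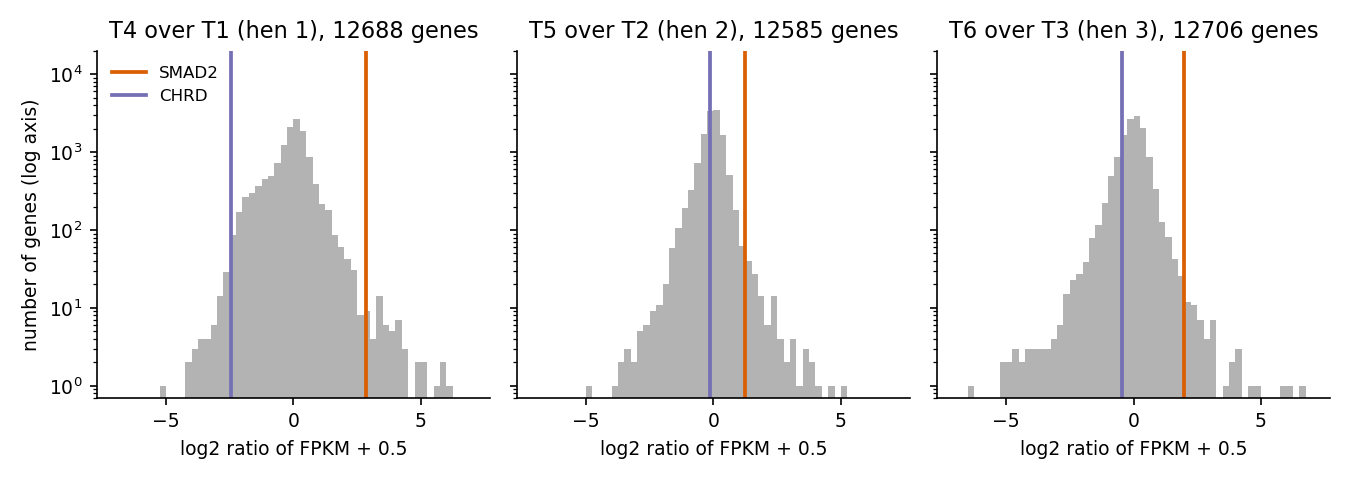
Histograms of the log2 ratio of FPKM + 0.5 within each hen, over all genes with at least 1 FPKM in either follicle, with the number of genes on a log axis. *SMAD2* (orange) lies in the upper tail in all hens at 2.87, 1.25 and 1.98, and *CHRD* (purple) lies in the lower tail in hen 1 at -2.44 and near the centre in hens 2 and 3.

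Over the 3 hens, the mean log2 ratio of *SMAD2* was 2.03 (higher in 3 of 3 hens, limma standard error 0.32, SD between hens 0.81). It did not pass the test across all genes (adjusted p = 0.774, limma with Benjamini-Hochberg adjustment). No gene did, 0% of 12381 in either direction, while 5.72% had an unadjusted p under 0.05. The unadjusted p of *SMAD2* was 0.000966, the 11th smallest. The exact sign-flip permutation test over the hens gave p = 0.25 (two-sided), the smallest value that 3 pairs allow. Without hen 1, whose T4 stands apart, the mean was 1.61 (limma standard error 0.25) and *SMAD2* passed with an adjusted p from limma of 1.08e-07, as did 1.66% of the genes in this direction. With 2 hens left, the spread of a single gene is hardly measured. The small p rests largely on the spread that limma pools over genes. On the same 2 hens the adjusted p of *SMAD2* from limma was 0.00625 with eBayes run without its robust option and 0.0657 without trend or robust. The call was thus lost with both options off, and the trend alone was not taken out.

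*CHRD* was a gene of middle abundance and was low in T4 alone. Its level was 8.93 FPKM in T1 against 1.24 in T4, 7.82 in T2 against 7.08 in T5, and 10.6 in T3 against 7.71 in T6. T4 was 7.22-fold below T1, T5 was 1.11-fold below T2, and T6 was 1.38-fold below T3. The ranges of T1 to T3 and of T4 to T6 did not overlap, as for 3.9% of 12381 genes in this direction, but T6 at 7.71 FPKM lay just below T2 at 7.82 FPKM. The order of the *CHRD* levels was T3, T1, T2, T6, T5, T4, and neighbours from T1 to T5 differed by less than the SD of 1.42 FPKM among T1, T2 and T3.

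In fragments, the counting error of *CHRD* was larger than that of *SMAD2*. T4 gave 52 estimated fragments (exact 95% Poisson interval 38.8 to 68.2) and T1 gave 408 (369 to 450), which do not overlap. T5 gave 300 (267 to 336) and T2 gave 343 (308 to 381), and these intervals overlap. The difference in hen 2 itself was not tested. T6 gave 327 (293 to 364) and T3 gave 469 (428 to 513), intervals that lie apart. By FPKM, *CHRD* ranked 11563rd of 17992 genes in T4 and between 7322nd (T3) and 8298th (T6) in the other follicles.

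The log2 ratios of *CHRD* were -2.44, -0.14 and -0.44 in hens 1, 2 and 3. A ratio at least 2-fold lower was found for 13.3% of all genes in T4, 3.31% in T5 and 4.41% in T6. Only in hen 1 was *CHRD* past this limit, with the 84th lowest ratio of 12688 genes. In hen 2, 37.0% of the genes had a lower ratio than *CHRD*, and in hen 3, 17.5%. The 0.5 FPKM added understates the difference in hen 1, where the normalized counts of 379.8 in T1 and 52.7 in T4 give a log2 ratio of -2.85. The mean over hens was -1.01 (lower in 3 of 3 hens, limma standard error 0.48, SD between hens 1.25, adjusted p = 0.774). Without hen 1 it was -0.29 and did not pass (adjusted p = 0.687, limma), while 2.11% of the genes did in this direction. The exact sign-flip permutation test gave p = 0.25 (two-sided), again the smallest possible.

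The ratio of *SMAD2* to *CHRD* can be read within a library, where any scaling of the library cancels. It compares transcript levels only. SMAD2 carries activin and TGF-β signals and chordin holds back BMPs, so the ratio is no measure of signalling. *SMAD2* per *CHRD*, in FPKM, was 10.9 in T1 against 574 in T4, 9.03 in T2 against 23.9 in T5, and 7.10 in T3 against 38.7 in T6. The value of T4 rests on 52 estimated fragments of *CHRD*. The ratio was higher in the second follicle of each pair, by 5.72 log2 units in hen 1, 1.40 in hen 2 and 2.45 in hen 3 (mean 3.19, SD 2.25, n = 3 hens, exact sign-flip permutation p = 0.25, two-sided). In hens 2 and 3 most of this came from *SMAD2*. In hen 1 both genes contributed about equally.

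*SMAD2* was then set beside granulosa cells, the layer around the oocyte that carries the FSH receptor. Of 11 granulosa markers on the list, 4 could be matched, namely *FSHR*, the steroidogenic factor *NR5A1*, the transcription factor *GATA4* and the N-cadherin gene *CDH2*. Their summed level was 199 FPKM in T1 against 564 in T4, 155 in T2 against 168 in T5, and 174 in T3 against 280 in T6. This sum had log2 ratios of 1.50, 0.12 and 0.68, each below that of *SMAD2*. The single markers ranged from 1.35 to 1.92 in hen 1, from -0.04 to 0.51 in hen 2 and from -0.07 to 1.29 in hen 3, and *GATA4* was the lowest in each hen. Per 1000 FPKM of these markers, *SMAD2* was at 433 to 487 FPKM in the first follicles (487, 455 and 433) and at 1005 to 1258 FPKM in the second (1258, 1005 and 1068). On this scale the log2 ratios of *SMAD2* were 1.37, 1.14 and 1.30, closer to each other than those of its FPKM. The 4 markers could be matched only where the paper called them in hen 1. This choice takes only markers past 2-fold in hen 1, and all 4 were higher there, which lowers the scaled ratio in hen 1. The closeness is therefore in part built in. The highest single marker was *FSHR* in hens 1 and 2 and *NR5A1* in hen 3, each with a ratio below that of *SMAD2*. The paper compared follicles that differ in *FSHR* mRNA, so *FSHR*, also part of the sum, is no independent measure of granulosa here. *NR5A1* (90.5 FPKM in T1 and 266 in T4) and *GATA4* (79.3 and 203) made up most of the sum in each follicle. Whether these genes mark granulosa alone was not tested, so the scaled values are per marker sum and not per granulosa content.

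*CHRD* was low in T4 together with genes of connective tissue. Of 13 markers of theca and stroma, 8 could be matched, among them the collagen genes *COL1A2* and *COL3A1*, which were the most abundant. Their FPKM added up to 6249 in T1 against 1184 in T4, 4593 in T2 against 4732 in T5, and 7837 in T3 against 6973 in T6, with log2 ratios of -2.40, 0.04 and -0.17. The single markers had log2 ratios of -2.73 to -2.20 in hen 1, and they went both ways in hen 2 (-0.18 to 0.21) and hen 3 (-0.56 to 0.15). Per 1000 FPKM of these markers, *CHRD* was at 1.36 to 1.70 FPKM in the first follicles (1.43, 1.70 and 1.36) and at 1.04 to 1.50 FPKM in the second (1.04, 1.50 and 1.11). The log2 ratios on this scale were -0.45, -0.19 and -0.30, against -2.85, -0.14 and -0.46 for FPKM with nothing added. Both matched endothelial markers, *CDH5* and *APLNR*, also had low values in T4, 3.61 and 3.69 FPKM, and were at 13.1 FPKM or more in the other follicles. The part of the cell mixture in the levels of *SMAD2* and *CHRD* was not tested. The markers could be matched only where the paper called them in hen 1, in either direction. A ratio past 2-fold there therefore follows from that choice, while its direction does not.

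**Figure D3:**
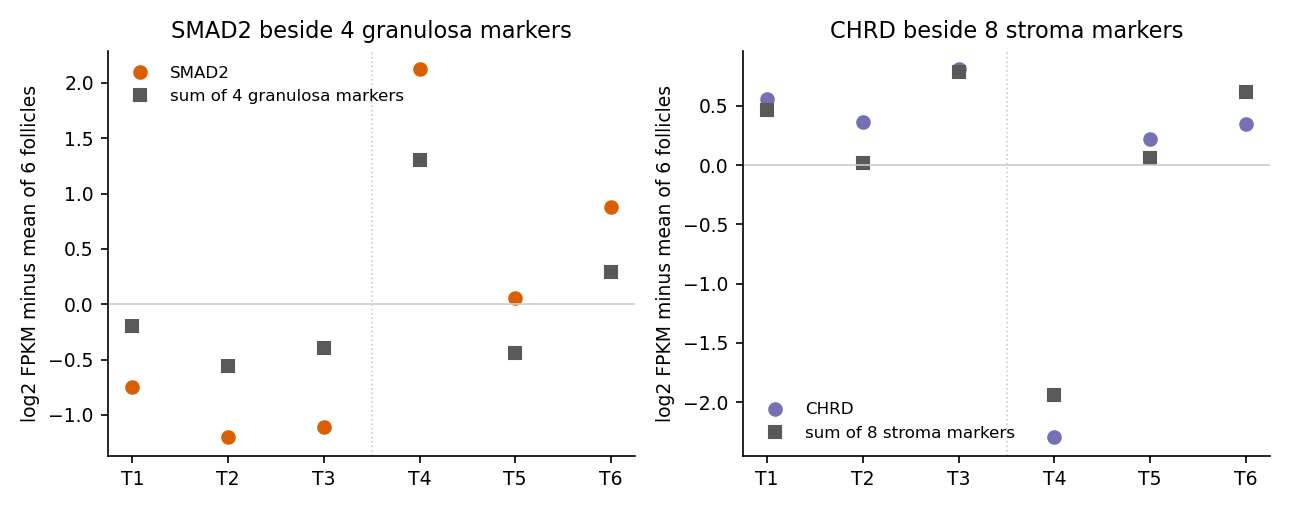
Log2 FPKM minus the mean of the 6 follicles for *SMAD2* beside the sum of 4 granulosa markers (left) and for *CHRD* beside the sum of 8 theca and stroma markers (right), 1 point per follicle. *SMAD2* spans a wider range than its markers, while *CHRD* and the stroma sum fall together in T4.

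The genes with the pattern most like *SMAD2* were sought among 9516 genes with a mean of at least 5 FPKM, of which 216 have a name here. The measure was the root mean square difference of log2(FPKM + 0.5) over the 6 follicles, with each gene centred on its own mean. The nearest of all was *PPARG*, a nuclear receptor of lipid metabolism, at 0.17 log2 units, with 12.1 FPKM in T1 against 69.6 in T4, 8.49 in T2 against 21.9 in T5, and 10.4 in T3 against 41.0 in T6. It was followed by *PFKFB3*, an enzyme that sets the rate of glycolysis (0.25), *KCNAB1*, a subunit of potassium channels (0.25), and the small GTPase gene *RALB* (0.27). The fifth named gene, *SKP2*, which directs cell cycle inhibitors to degradation, ranked 11th of all genes (0.39) and also lies on chromosome Z. The named genes nearest to *CHRD* were the protease gene *CTSK* (0.14), *COL6A3* (0.16), *SLC16A4* (0.19), *COL1A2* (0.20) and *COL6A1* (0.21). They include 3 of the 8 stroma markers and ranked between 11th and 30th, since genes without a name lay nearer. The names favour genes that differed in hen 1.

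The gene before *SMAD2* on the chromosome, gene18242, did not share its pattern. It lay 20557 bases away on the same strand and had log2 ratios of -0.59, -0.93 and -0.45. The gene after *SMAD2*, gene18244, lay 166896 bases away. It was at most at 0.0937 FPKM in any follicle, too low to read a pattern. Over 553 genes of chromosome Z that passed the filter, the median log2 ratios were 0.02, 0.09 and 0.13, and 5, 8 and 1 of them had a higher ratio than *SMAD2* in hens 1, 2 and 3. Next to *CHRD*, a transcript listed as Chicken_newGene_2510 lay 929 bases beyond its 5′ end on the same strand. It had 2.07 FPKM in T1 against 0.285 in T4, 1.42 in T2 against 1.08 in T5, and 3.28 in T3 against 1.78 in T6, with log2 ratios of -1.71, -0.27 and -0.73. Like *CHRD*, it was lowest in T4, and the values do not show whether the neighbours share fragments. On the other side, gene11326 was at most at 0.248 FPKM.

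The surrounding pathway was followed with a list of 55 genes of TGF-β and BMP signalling, of which 11 could be matched to a gene number and the rest have no value here. A gene could be matched only where the paper had called it in hen 1 at 2-fold or more, in either direction, *SMAD2* and *CHRD* included. That all 11 were past 2-fold in hen 1 follows from that choice. Of them, 9 were higher in T4 and 2 lower (*CHRD* and *DCN*), with a median log2 ratio of 1.60. Of all genes, 5.38% were higher and 13.3% lower, but these were not selected in hen 1. The choice does not set the direction, but most listed genes have no value, so the split is not read as a result about the pathway. In hen 2, *SMAD2* and *INHA* were at least 2-fold higher in T5 and no member was lower, where 1.46% of all genes were higher and 3.31% lower. In hen 3, *SMAD2* and *INHA* were higher and *FST* was lower in T6, where 2.61% of all genes were higher and 4.41% lower. Without *SMAD2* and *CHRD*, 1 of 9 members was thus higher in each of these hens. The median log2 ratios of the 11 were 0.21 and 0.30 in hens 2 and 3, beside -0.02 and 0.01 over all genes. The 11 were selected in hen 1, where 9 were higher, and the genes beside them were not. These medians therefore do not describe the pathway. *SMAD2* and *INHA* were the members at least 2-fold higher in every hen. No list member passed limma across the 12381 genes, and 3, *INHA*, *SMAD2* and *ID2*, had an unadjusted p under 0.05, beside 5.72% of all genes. The fit includes hen 1, by which the members were matched, so this count is no result about the pathway.

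Among the ligands, *INHA*, the α subunit of inhibin, which opposes activin, had 47.0 FPKM in T1 against 1491 in T4, 54.4 in T2 against 296 in T5, and 10.1 in T3 against 794 in T6. The log2 ratios of 4.97, 2.44 and 6.23 exceeded those of *SMAD2*. The receptor and membrane genes stayed under 2-fold in hens 2 and 3. *BMPR1B*, a type I receptor of BMPs, had log2 ratios of 1.28, 0.09 and 0.57, and *BMPR2*, the type II receptor that acts with it, had 1.73, 0.21 and 0.23. *BAMBI*, a membrane protein that resembles a type I receptor but lacks the kinase, was at 48.0 FPKM in T1 against 193 in T4, 66.4 in T2 against 62.5 in T5, and 31.5 in T3 against 60.7 in T6. The range of T4 to T6 overlapped that of T1 to T3 for all 3.

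*ZFYVE9* encodes SARA, the anchor that brings SMAD2 to the activated receptor. Its level was 14.8 FPKM in T1 against 41.6 in T4, 16.3 in T2 against 20.0 in T5, and 19.1 in T3 against 22.5 in T6, with log2 ratios of 1.46, 0.29 and 0.23. The ranges did not overlap, although the ratios in hens 2 and 3 were far below those of *SMAD2*. *ID2*, a target of BMP signalling, was at 162 FPKM in T1 against 492 in T4, 185 in T2 against 326 in T5, and 319 in T3 against 524 in T6. Its log2 ratios were 1.60, 0.82 and 0.72, and its ranges did not overlap either. In all, 4 of the 11 genes, *INHA*, *SMAD2*, *ZFYVE9* and *ID2*, had all second follicles above all first ones, and *CHRD* was the only one of the 11 with all of them below, beside 5.94% and 3.9% of all genes. The choice of the members by hen 1 bears on this count too.

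The extracellular antagonists did not share one pattern. *NOG* encodes noggin, which binds BMPs as chordin does. Its log2 ratios were 1.76, 0.18 and 0.30, the opposite direction to *CHRD* in every hen. In hen 2 both ratios were small (-0.14 for *CHRD*), and the ranges of *NOG* in the first and second follicles overlapped. *NOG* was the more abundant transcript in each follicle, with 17.6 FPKM in T1 against 60.8 in T4, 23.5 in T2 against 26.8 in T5, and 11.2 in T3 against 13.9 in T6, and T3 was the follicle where *NOG* and *CHRD* came closest. *FST*, the gene of the activin-binding protein follistatin, had log2 ratios of 1.17, -0.02 and -1.09, so that it was higher in T4 and lower in T6. *DCN*, the proteoglycan decorin, which binds TGF-β and is also on the stroma list, had log2 ratios of -2.50, 0.21 and 0.08. In hen 1 its ratio was close to that of *CHRD*.

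**Figure D4:**
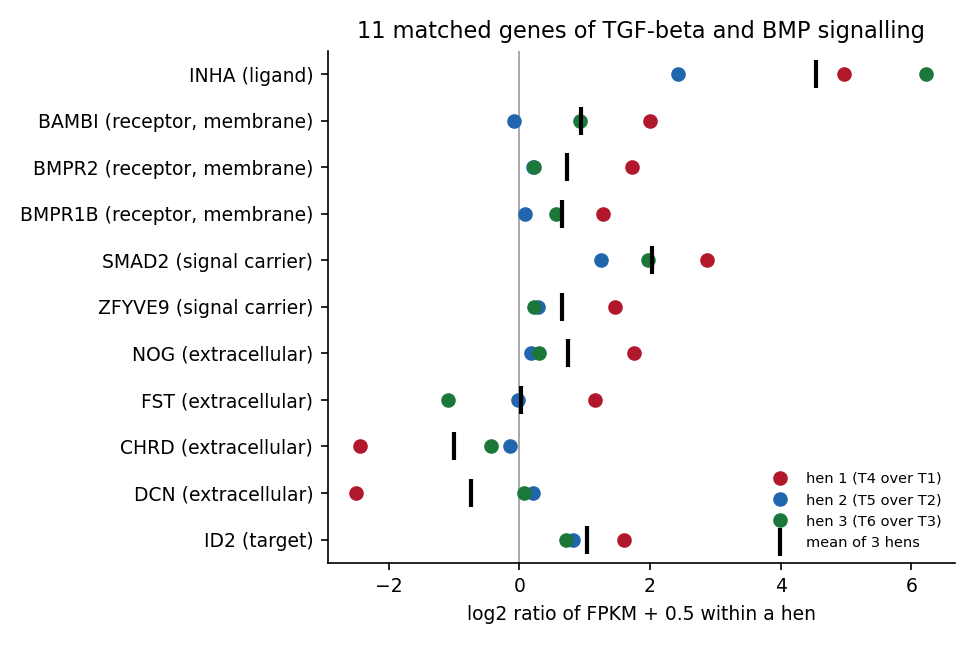
Log2 ratios of FPKM + 0.5 within hens (coloured points) and their means (black bars) for the 11 matched genes, ordered by role. All 11 are past 2-fold in hen 1 because only such genes could be matched. In hens 2 and 3, *INHA* and *SMAD2* exceed 1. *FST* is past 2-fold lower in hen 3, at -1.09, and the other genes stay under 2-fold.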

How the data were processed

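The authors made a poly(A)-selected library from each follicle for Illumina sequencing and aligned the filtered reads. Bowtie 0.12.2 and Cufflinks stand in the submitters' processing notes. The paper names the chicken assembly Gallus_gallus-5.0, and the notes name mm8. The authors deposited FPKM and a normalized count per gene and follicle, the latter a signal of estimated fragments divided by 1 factor per library. Of the normalized counts below 30, 89.8% to 90.4% were whole multiples of a step within 0.02. No count model was fitted across genes, because the tests used FPKM, which are not counts. The Poisson intervals were taken on estimated fragments rounded to whole numbers. A further column of values, 1 in number, names no sample and was left out, as was 1 line that repeats the header.

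limma 3.58.1 in R 4.3.3 (lmFit, eBayes with trend and robust) was fitted to log2(FPKM + 0.5) for the 12381 genes reaching 1 FPKM in 3 or more follicles, with the hen as block, Benjamini-Hochberg adjustment and a limit of 0.05. It was tested on simulated data. The hens come from the paper. Deviations from the group means correlated at 0.43, 0.18 and 0.53 within hens and at -0.46 to 0.18 between them, and T2 correlated about equally with T4. The labels name no batches. With the hen as block, p-values from limma rest on the spread of the within-hen ratios over the 3 hens, moderated by that of other genes. The rest was done in Python 3.11.15 (scipy 1.17.1, pandas 2.3.3, numpy 2.4.6), with plots from matplotlib 3.10.9.

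Names came from the chicken entries in the paper's T1 vs. T4 annotation that match the RefSeq table (290 genes, 6 more set aside because a symbol repeats). Chromosomes were given to a sequence where at least 80% of its named genes share one. The members and lists were chosen with earlier results of these data known. The genes named are *SMAD2*, *CHRD*, *FSHR*, the matched members of the pathway list, the genes next to each member, the 5 named genes most like each, the 2 most abundant markers of each list, and, beyond that rule, *CDH2*. No marker of smooth muscle, immune cells, red blood cells or the oocyte was matched. Alternatives were pseudocounts of 0.1 and 1, other filters, a scaling by the median of ratios, normalized counts, no block, each hen left out and other eBayes options. The qRT-PCR values of the paper are not reported.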

Additional observations from a re-analysis of the deposited data

How the results depend on the processing

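The mean log2 ratio of *SMAD2* stayed between 2.02 and 2.08 under pseudocounts of 0.1 and 1, no filter, a filter of 5 FPKM, the median-of-ratios scaling, normalized counts, no replicate block and other eBayes options, with adjusted p from limma of 0.690 to 0.962. That of *CHRD* stayed between -1.12 and -0.90, with adjusted p of 0.744 to 0.962. Under the other filters, other eBayes options and no replicate block for hens, the means were the same by construction, 2.03 and -1.01. Only the pseudocounts, the scaling and the normalized counts could move them. No gene was called under any of these settings.

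With each hen left out, *SMAD2* ranged from 1.61 (without hen 1, where it passed the test, adjusted p = 1.08e-07 in limma) to 2.42 (without hen 2, adjusted p = 0.456), and *CHRD* from -1.44 to -0.29 without passing. Such fits hold 2 hens, and their p rests largely on the spread pooled over genes. The number of genes called higher ranged from 0 to 205 and of those called lower from 0 to 261. The latter values are those without hen 1. With eBayes also run without robust, a setting chosen after seeing the data, they were 59 and 66, and without trend or robust 11 and 10. *SMAD2* then had adjusted p of 0.00625 and 0.0657. The ratio of *CHRD* in T4 over T1 ranged from -2.76 with a pseudocount of 0.1 to -2.15 with a pseudocount of 1. All 6 ratios within hens kept their direction under the median-of-ratios scaling and under normalized counts. A pseudocount cannot reverse a ratio. Depth limits *CHRD* in T4, where 52 fragments were estimated.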
